A study of Mus musculus with 9 samples.

Results

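Neutrophil secondary and tertiary granule genes were followed across Mac1+ bone marrow cells of 3 mouse genotypes. The group holds 10 of the 23420 gene symbols in the deposited table, chosen by gene symbol with earlier results of these data known: Ltf, Camp, Ngp, Lcn2, Mmp8, Mmp9, Cd177, Hp, Pglyrp1 and Padi4. All 10 had a row in every library, and all 10 passed the filter on low values. Padi4 is listed with them although it is known as a cytosolic and nuclear enzyme of neutrophils and not as a granule protein.

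RNA was sequenced from 9 libraries of C57BL/6 mice, each made from 100 cells sorted for Mac1, the integrin αM chain found on granulocytes and monocytes. The DKOITD group (n = 4) carried Ezh2 fl/fl and Runx1 fl/fl alleles with Rag1Cre+ and one Flt3 ITD/+ allele. Libraries of the ITD group (n = 2) had the same floxed alleles and Flt3 ITD/+ without Cre. The WT group (n = 3) carried the floxed alleles alone, so all 9 libraries share floxed Ezh2 and Runx1. Rag1 is active in early lymphoid progenitors, and the labels do not give the share of Mac1+ cells that had deleted either gene. DKOITD differs from ITD by Cre and by what Cre deletes, which cannot be told apart. The labels give neither age nor sex, nor whether each library came from its own animal. The p-values therefore measure the spread between these libraries, which may be technical.

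Neutrophils fill their granules in order as they mature. Primary granules, with myeloperoxidase and serine proteases, form in promyelocytes. Secondary granules, with lactoferrin and cathelicidin, form in myelocytes and metamyelocytes, and tertiary granules, rich in gelatinase, form last. The proteins are made at the stage when their granule forms, so their transcripts mark stages of maturation. C/EBPε, encoded by Cebpe, is the transcription factor required for many secondary granule genes.

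Reads recovered from the deposited values ranged from 2825728 (DKOITD 2) to 23124435 (WT 1) per library. WT 2 stood apart, since its correlation with each other library over all genes had a median of 0.759, against medians of 0.815 to 0.881 for the rest. Of 11 symbols chosen as defining neutrophils, 3 of them members, 10 were analysed and all 10 passed the filter, so neutrophil transcripts were present in the sort. Their summed level ran from 36422 to 259050 RPKM in DKOITD, from 667812 to 708030 RPKM in ITD and from 861305 to 1160840 RPKM in WT. Itgam, the gene of the sort marker, stood at 10.98, 33.3, 24.8 and 39.0 RPKM in the DKOITD libraries, at 78.1 and 97.3 RPKM in ITD, and reached 100.5, 143 and 90.3 RPKM in WT.

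Camp and Ngp led the members in every group and ranked between 3 and 16 among all genes in every library. Other members were far less abundant, and Mmp9 and Padi4 ranked 6110 and 6885 in DKOITD 3. RPKM is a read count scaled to gene length, so levels of different genes within a library can be set side by side. Between libraries the columns also differ by a factor, and the RPKM denominator per recovered read was 1.13 to 1.44 in DKOITD, 0.853 and 0.918 in ITD and 0.703 to 0.809 in WT, relative to their geometric mean. A larger denominator gives a lower RPKM for the same share of reads, so this factor lowers DKOITD relative to ITD and WT. Overlaps of gene levels between groups were read on the deposited RPKM only. In DKOITD, Ngp averaged 10652 ± 9043 RPKM and Camp 9907 ± 7326 RPKM (SD, n = 4). Lcn2 followed at 1518 ± 1232 RPKM, Ltf at 999 ± 760 RPKM and Pglyrp1 at 723 ± 446 RPKM (SD, n = 4). Hp at 341 ± 179 RPKM, Mmp8 at 221 ± 181 RPKM and Cd177 at 175 ± 108 RPKM came next, and Mmp9 at 37.0 ± 53.1 RPKM and Padi4 at 18.8 ± 16.8 RPKM were lowest (SD, n = 4). The ranges of neighbours in this order overlapped except for Camp and Lcn2.

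In WT libraries Camp averaged 73299 ± 10711 RPKM and Ngp 51158 ± 13766 RPKM (SD, n = 3), and both ranked 3 or 4 among all genes in each WT library. Lcn2 followed at 13185 ± 4509 RPKM, then Ltf at 4929 ± 1885 RPKM and Pglyrp1 at 3322 ± 241 RPKM (SD, n = 3). Hp at 1133 ± 426 RPKM, Mmp8 at 1075 ± 371 RPKM, Mmp9 at 587 ± 262 RPKM and Cd177 at 555 ± 368 RPKM formed a middle tier, and Padi4 was lowest at 159 ± 98.3 RPKM (SD, n = 3). Neighbours whose WT ranges overlapped were Camp and Ngp, Ltf and Pglyrp1, Hp and Mmp8, Mmp8 and Mmp9, and Mmp9 and Cd177. The ITD order was that of WT except that Cd177 stood above Mmp9. Cd177 was above Mmp9 in 4 of 4 DKOITD libraries, in 2 of 2 ITD libraries and in 1 of 3 WT libraries.

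**Figure D1:**
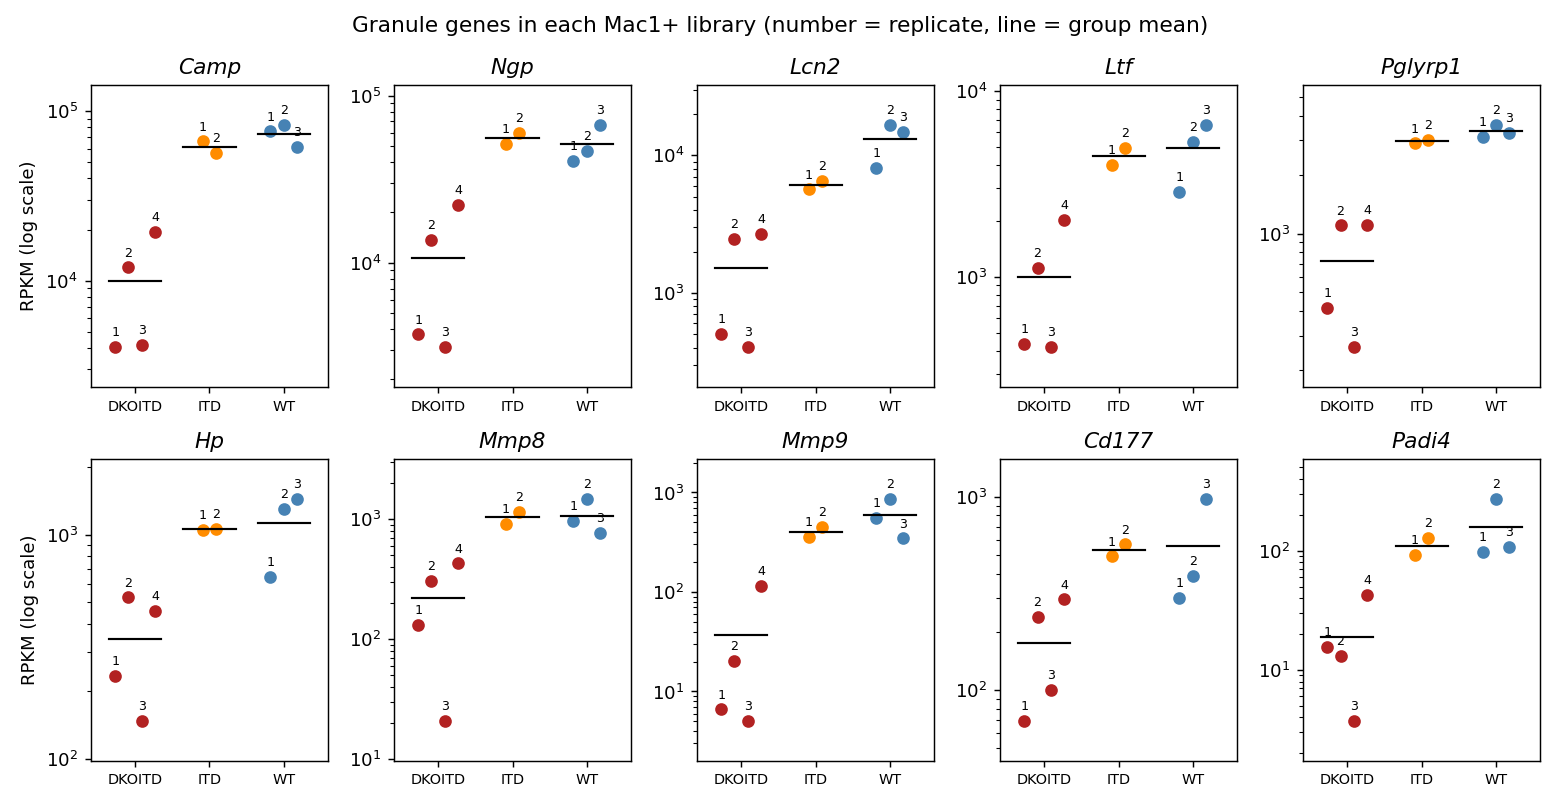
RPKM (log scale) of each member gene in DKOITD, ITD and WT libraries. Each point is one library with its replicate number and each line is the group mean. All 4 DKOITD points lie below every ITD and WT point for all 10 genes, with DKOITD 1 and DKOITD 3 lowest for most genes.

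Camp, Ngp and Ltf lie on chromosome 9 within 1195389 bp of mm10, with Camp at 109847379 to 109849617 on the minus strand, Ngp at 110419747 to 110423012 and Ltf at 111019271 to 111042767. Mmp8 is on the same chromosome at 7558456 to 7568485. Cd177 (24743983 to 24760311) and Pglyrp1 (18871331 to 18890459) are on chromosome 7, and Lcn2 (32384633 to 32388252) and Mmp9 (164940780 to 164955850) on chromosome 2. Hp is on chromosome 8 at 109575128 to 109579172 and Padi4 on chromosome 4 at 140745865 to 140774236. No exon of the 10 genes overlaps an exon of another gene in GENCODE release M21, which matters because the library method does not mark strand.

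RefSeq promoter windows (GRCm38.p6, the 250 bases before the annotated start) were found for 8 of the 10 genes, all but Hp and Mmp9. Each was searched on both strands for TTNNGNAA, a loose form of the C/EBP site, and for GAGGAA, a core bound by the ETS factor PU.1. TGTGGT, the core bound by RUNX factors, and TATAAA were searched in the same way. A match to TTNNGNAA was in 5 of 8 windows, against 36.8% of all 32851 promoter windows of that length. Camp, Pglyrp1 and Padi4 had no such match, and Camp had no match to any of these motifs. GAGGAA was in 5 of 8, against 23.3%, and TATAAA in 2 of 8 (Cd177 and Padi4), against 12.4%. TGTGGT was in 0 of 8, against 14.0%. These are letter matches in a fixed window and say nothing of binding. The stretches below are of 4 members and were chosen because they hold C/EBP-like matches, each of 160 bases and written along the gene's strand. They end at the start annotated by GENCODE or RefSeq, whichever comes first, and capitals mark every match to these motifs, none of which overlaps another.
Ltf, chr9:111019111-111019270, plus strand: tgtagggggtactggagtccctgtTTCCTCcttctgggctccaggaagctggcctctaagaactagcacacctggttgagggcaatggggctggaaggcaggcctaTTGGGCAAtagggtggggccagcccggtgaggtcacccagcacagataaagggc
Ngp, chr9:110419587-110419746, plus strand: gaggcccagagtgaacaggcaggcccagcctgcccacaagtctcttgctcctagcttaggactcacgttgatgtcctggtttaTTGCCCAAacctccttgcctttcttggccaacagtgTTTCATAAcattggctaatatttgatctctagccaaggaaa
Mmp8, chr9:7558269-7558428, plus strand: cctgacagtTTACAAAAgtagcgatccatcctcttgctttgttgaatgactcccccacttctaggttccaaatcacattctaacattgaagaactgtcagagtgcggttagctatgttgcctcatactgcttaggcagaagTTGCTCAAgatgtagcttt
Cd177, chr7:24760312-24760471, minus strand: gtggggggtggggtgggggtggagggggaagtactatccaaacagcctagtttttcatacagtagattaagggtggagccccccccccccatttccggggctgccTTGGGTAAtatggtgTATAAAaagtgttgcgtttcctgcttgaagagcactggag
Ltf shows TTGGGCAA and, on the other strand, the GAGGAA core (capitals TTCCTC), and Ngp and Mmp8 each show 2 C/EBP-like matches. Cd177 shows one C/EBP-like match just before its TATAAA.

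All 10 members fell in DKOITD against WT, the comparison that asks how the combined alleles change Mac1+ cells. Differences were fitted with limma on log2(RPKM + 1) across 10868 genes and called at a Benjamini-Hochberg adjusted p under 0.05. A count of 10 of 10 members called lower compares with 5.27% of all genes called lower and 12.7% called in either direction (807 higher and 573 lower). The median log2 difference of the members was -2.80, against 0.17 for all genes tested. At an unadjusted p under 0.05, 10 of 10 were lower, against 12.3% of all genes. With the series of label numbers as a term, 4 genes in all and 0 members were called, and the members' median was -1.43. In bulk samples, fewer cells of a type and less RNA per cell cannot be told apart.

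In deposited RPKM the DKOITD and WT libraries did not overlap for any member. In 10 of 10 members every DKOITD library was below every WT library, which held for 10.9% of all genes. Overlap was not counted after rescaling, which raises DKOITD relative to WT and can bring the ranges together. Rescaled to TPM, which gives every library the same sum, 5008 genes were called higher and 127 lower in DKOITD, and 7 of 10 members were called, all but Mmp8, Cd177 and Hp. Per recovered read the split was 2525 higher and 247 lower, with 8 members called, and with quantile normalization it was 678 higher and 767 lower, with 9 members called. The median of all genes moved to 1.23 in TPM and 0.74 per read, where the members' medians were -1.39 and -2.03. The 1380 calls over all genes fell to 606 without DKOITD 1, 537 without DKOITD 3 and 762 without WT 2, and 6 members were called without DKOITD 1. With no filter on low values, 733 genes and 4 members were called, Lcn2, Pglyrp1, Mmp9 and Padi4.

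Among the antimicrobial proteins, the cathelicidin gene Camp (ENSMUSG00000038357) had the smallest p of the 10 members. Its level was 4062, 11964, 4203 and 19398.5 RPKM in DKOITD libraries 1 to 4, against 75712, 82598 and 61588 RPKM in WT libraries 1 to 3. The highest DKOITD library held less than the lowest WT library by a wide margin. The log2 difference was -3.20 ± 0.50 (SE; limma, adjusted p = 0.00395), a 9.17-fold lower level on the deposited scale. It was -2.43 per recovered read and -1.79 in TPM. Camp encodes the precursor of CRAMP, a peptide that kills bacteria by disrupting their membranes.

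Ngp (ENSMUSG00000032484), a cystatin-related protein of mouse neutrophil granules, measured 3721.5, 13633, 3123 and 22130.2 RPKM in DKOITD, against 40439, 46354 and 66682 RPKM in WT. It fell by 2.70 on the log2 scale (SE 0.60; limma, adjusted p = 0.0150). DKOITD 2 and DKOITD 4 were again above DKOITD 1 and DKOITD 3, none reached the WT range, and the call was lost without DKOITD 1. Pglyrp1 (ENSMUSG00000030413), a peptidoglycan recognition protein with antibacterial activity, measured 418, 1101, 263 and 1109 RPKM in DKOITD, against 3117, 3587 and 3263 RPKM in WT. Its log2 difference was -2.45 ± 0.45 (SE; limma, adjusted p = 0.00681), and its WT libraries lay within 1.15-fold of each other.

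Lcn2, Ltf and Hp, which bind siderophores, iron or haemoglobin, each fell. Lcn2 (ENSMUSG00000026822), lipocalin 2, withholds iron from bacteria by binding their siderophores. It measured 507, 2458, 404 and 2704 RPKM in DKOITD, against 8084, 16639 and 14830.4 RPKM in WT, an 11.6-fold lower level on that scale (log2 difference -3.54 ± 0.62, SE; limma, adjusted p = 0.00558). The Lcn2 difference was -2.77 per recovered read and -2.13 in TPM. Ltf (ENSMUSG00000032496), lactoferrin, binds iron itself and is the classic marker of secondary granules. Ltf measured 433, 1117, 418 and 2029 RPKM in DKOITD, against 2873, 5337 and 6576 RPKM in WT, with a log2 difference of -2.54 ± 0.51 (SE; limma, adjusted p = 0.0101). The Ltf groups came nearest at DKOITD 4 and WT 1 and did not overlap. Hp (ENSMUSG00000031722), haptoglobin, binds free haemoglobin. Hp measured 234, 525, 148 and 457 RPKM in DKOITD, against 648, 1302 and 1448 RPKM in WT, and its log2 difference was -1.82 ± 0.43 (SE; limma, adjusted p = 0.0207). That difference was -1.06 per recovered read and -0.42 in TPM, and Hp was called in neither. The Hp groups came nearest at DKOITD 2 and WT 1 and did not overlap in deposited RPKM. Hp also lost its call without DKOITD 1, without DKOITD 3 or without WT 2.

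The matrix-degrading enzymes Mmp9 and Mmp8 both fell, and their differences were not tested against each other. Mmp9 (ENSMUSG00000017737), gelatinase B of the tertiary granule, measured 6.60, 20.3, 5.06 and 116 RPKM in DKOITD, against 550.5, 866 and 346 RPKM in WT. Its log2 difference of -4.90 ± 0.80 (SE; limma, adjusted p = 0.00443) was the largest of the 10 in this fit. It was -5.79 without DKOITD 4, -3.56 in TPM, -4.17 per recovered read and -2.23 with the label numbers as a term, where it was not called, and the mean RPKM was 15.9-fold lower in DKOITD. DKOITD 4 carried most of the remaining Mmp9, at a level far above the other DKOITD libraries and still below every WT library. Mmp8 (ENSMUSG00000005800), the neutrophil collagenase, measured 132, 304, 20.8 and 428 RPKM in DKOITD, against 971, 1487 and 768 RPKM in WT. It fell by 2.89 on the log2 scale (SE 0.78; limma, adjusted p = 0.0317) and lost its call without DKOITD 1, without WT 1 or without WT 2, and it was -2.00 without DKOITD 3. DKOITD 3 was low even for its group.

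Cd177 kept its call under the fewest alternative settings of the 10, while Padi4 was called under 17 of 18, as were Lcn2, Pglyrp1 and Mmp9. Cd177 (ENSMUSG00000052212) encodes a neutrophil surface glycoprotein that is also stored in secondary granules. It measured 69.0, 239, 99.8 and 294 RPKM in DKOITD, against 299, 389 and 977 RPKM in WT. DKOITD 4 and WT 1 were almost level, and the log2 difference of -1.70 ± 0.51 (SE; limma, adjusted p = 0.0495) was called under 4 of 18 alternative settings. It was -0.94 per recovered read and -0.30 in TPM, and was called in neither. The call was lost without DKOITD 1, DKOITD 3, ITD 1, ITD 2, WT 2 or WT 3. Padi4 (ENSMUSG00000025330) encodes peptidylarginine deiminase 4, which citrullinates histones when neutrophils release extracellular traps. Padi4 measured 15.5, 13.2, 3.75 and 42.9 RPKM in DKOITD, against 97.4, 272 and 107 RPKM in WT. Its log2 difference was -3.26 ± 0.62 (SE; limma, adjusted p = 0.00771), and the groups lay apart. The lowest Padi4 value rests on 107 recovered reads in DKOITD 3, the fewest of any member in any library.

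**Figure D2:**
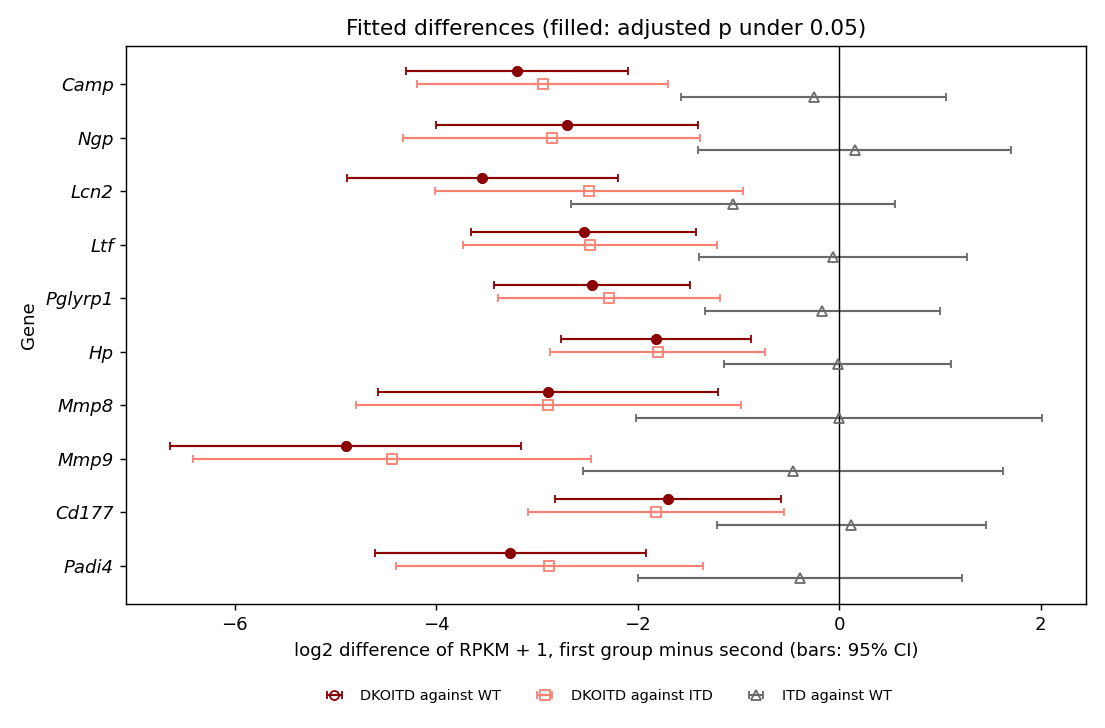
Fitted log2 differences of RPKM + 1 with 95% confidence intervals for each gene in DKOITD against WT, DKOITD against ITD and ITD against WT. Filled symbols passed an adjusted p of 0.05, which holds for all 10 genes in DKOITD against WT only, and Mmp9 has the lowest value, at -4.90.

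DKOITD against ITD compares the same Flt3 allele with and without Cre. None of the 10 members passed the limma test at an adjusted p under 0.05, where 6 of all genes were called lower (0.0552%). Adjusted p ranged from 0.0578 to 0.152. At an unadjusted p under 0.05, 10 of 10 were lower, against 6.65% of all genes. In deposited RPKM, 10 of 10 had every DKOITD library below both ITD libraries, against 14.0% of all genes. The members' median log2 difference was -2.67, against 0.11 for all genes. This comparison shares its DKOITD libraries with the one above.

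The antimicrobial genes lay below both ITD libraries in every DKOITD library. Camp ranged from 4062 to 19398.5 RPKM in DKOITD, against 66118 and 56288 RPKM in ITD, a log2 difference of -2.94 ± 0.57 (SE; limma, adjusted p = 0.0578). Ngp ranged from 3123 to 22130.2 RPKM in DKOITD, against 51495 and 59970.2 RPKM in ITD, a difference of -2.85 ± 0.68 (SE; limma, adjusted p = 0.0704). For Pglyrp1 the DKOITD range was 263 to 1109 RPKM, against 2888 and 3017 RPKM in ITD, a difference of -2.28 ± 0.51 (SE; limma, adjusted p = 0.0646). The DKOITD libraries spread over 4.22-fold to 7.09-fold for these genes, while the ITD pairs lay within 1.17-fold.

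The log2 difference from ITD was -2.49 for Lcn2, -2.48 for Ltf and -1.80 for Hp. Lcn2 ranged from 404 to 2704 RPKM in DKOITD, against 5654 and 6505 RPKM in ITD. Ltf ranged from 418 to 2029 RPKM in DKOITD, against 4019 and 4949 RPKM in ITD. Hp ranged from 148 to 525 RPKM in DKOITD, against 1049 and 1064 RPKM in ITD. None of these ranges overlapped.

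Mmp9 again had the largest difference, -4.44 ± 0.91 (SE; limma, adjusted p = 0.0578), with 5.06 to 116 RPKM in DKOITD, against 355 and 448 RPKM in ITD. Mmp8 differed by -2.89, with 20.8 to 428 RPKM in DKOITD, against 922 and 1153 RPKM in ITD. Padi4 differed by -2.88, with 3.75 to 42.9 RPKM in DKOITD, against 91.3 and 128 RPKM in ITD. Cd177 had the highest adjusted p of the 10 (limma, 0.152) at -1.82, with 69.0 to 294 RPKM in DKOITD, against 490.3 and 566 RPKM in ITD. Without DKOITD 4, the DKOITD library highest for 9 of the 10 genes, 6 members passed and 157 genes in all, against 23 with every library, 1 without DKOITD 1, 1 without ITD 1, 0 without DKOITD 3, 0 without ITD 2 and 42 without WT 2.

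ITD against WT asks what the Flt3 allele does without Cre. None of the members passed the limma test, and none had an unadjusted p under 0.05. One gene of all tested was called (0.00920%), the dendritic cell lectin Cd209a, which rose. Values were lower in ITD for 8 members and higher for 2, with a median log2 difference of -0.11 and 0 for all genes. Lcn2 was lowest at -1.05 (95% CI -2.66 to 0.56), and Ngp was highest at 0.15 (95% CI -1.40 to 1.71). The intervals reach from -2.54 to 1.62 for Mmp9 and from -1.14 to 1.11 for Hp, so a difference of 2-fold in either direction lies within both intervals with 2 and 3 libraries. Both ITD libraries were below every WT library for Lcn2 and Pglyrp1, 2 of 10 members, against 8.99% of all genes. The intervals of ITD against WT include 0 for every member.

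The members shared much of their order over the libraries. DKOITD 3 was the lowest of the 9 libraries for 8 members and DKOITD 1 for the other 2, Camp and Cd177. These libraries were the lowest pair for 9 of 10 members, the exception being Padi4, where DKOITD 2 was lower than DKOITD 1. Among WT libraries, WT 2 was the highest of all for 6 members and WT 3 for 4. The ratio of the highest to the lowest DKOITD library ran from 3.56 for Hp to 22.9 for Mmp9, with 20.6 for Mmp8 and 11.4 for Padi4. The same ratio was at most 1.40 in ITD and between 1.15 and 3.27 in WT. The label numbers of the libraries split the DKOITD group as well, since DKOITD 1 to 3 carry 228, 267 and 274 and all other libraries carry 385 to 393. The labels do not say what the numbers record. With that split as a term, only DKOITD 4 represents its genotype beside the other groups, and 0 members were called, with a median of -1.43. The part of the split in the results was not tested beyond that fit.

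**Figure D3:**
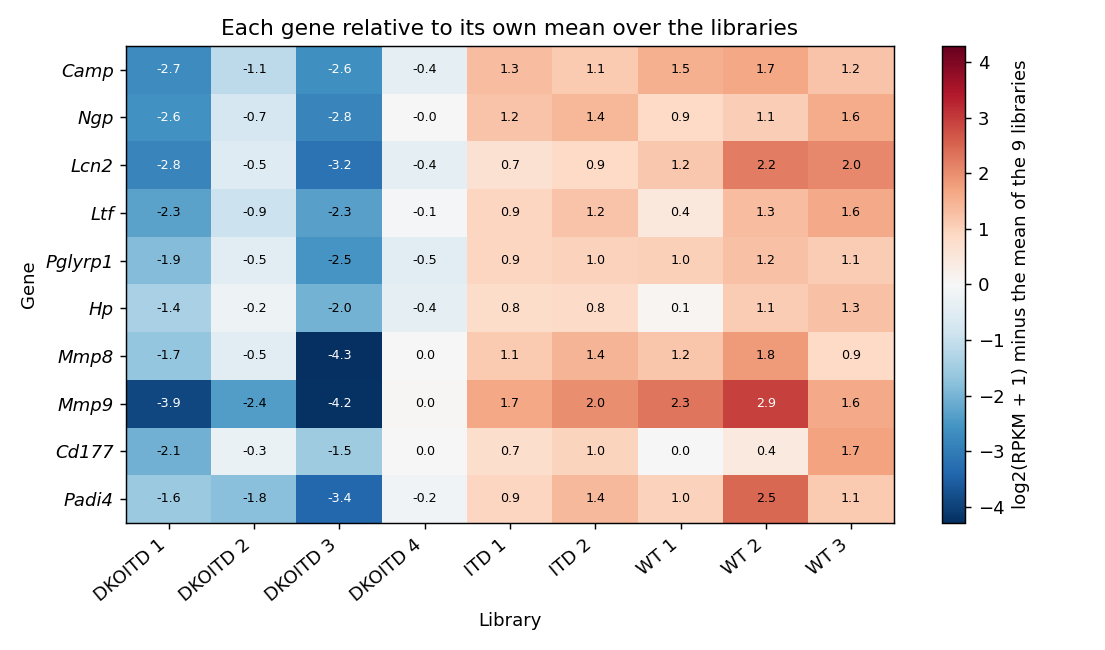
log2(RPKM + 1) of each member gene (rows) in each library (columns, DKOITD, then ITD, then WT) minus that gene's mean over the 9 libraries. Blue cells lie below the mean and red cells above it. DKOITD 1 and DKOITD 3 are darkest blue, DKOITD 2 is paler, and DKOITD 4 lies near 0 for most genes.

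Taken as a summed level, the 10 genes held 1.91%, 5.20%, 1.96% and 6.71% of all RPKM in DKOITD libraries 1 to 4, 11.7% and 11.0% in ITD, and 8.99%, 9.65% and 11.7% in WT. Camp and Ngp made up most of the sum everywhere, at 83.1% ± 2.04 in DKOITD (SD, n = 4), 87.5% ± 1.18 in ITD (SD, n = 2) and 83.5% ± 3.44 in WT (SD, n = 3). S100a8 and S100a9, the calprotectin subunits that fill the neutrophil cytosol, were low in the same libraries. Their summed level was 47622, 166214, 27056.5 and 215164 RPKM in DKOITD, against 543605 and 586309 RPKM in ITD. It was 869439, 1026070 and 722119 RPKM in WT. The members' sum divided by that of S100a8 and S100a9 was 0.202, 0.189, 0.321 and 0.226 in DKOITD, 0.245 and 0.229 in ITD, and 0.153, 0.155 and 0.217 in WT. The DKOITD and WT ranges of that ratio overlap, although the sums themselves lie apart.

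Ratios of members within a library were also read. For every 1000 of Ltf, Mmp9 came to 15.2, 18.2, 12.1 and 57.1 in DKOITD, 88.3 and 90.6 in ITD, and 192, 162 and 52.6 in WT. DKOITD 1 to 3 were below all other libraries, and DKOITD 4 was level with WT 3. The ratio of Lcn2 to Ltf was 1.17, 2.20, 0.966 and 1.33 in DKOITD, 1.41 and 1.31 in ITD, and 2.81, 3.12 and 2.26 in WT, where the DKOITD and WT libraries did not overlap. The ratio of Camp to Ngp, 1.09, 0.878, 1.35 and 0.877 in DKOITD, 1.28 and 0.939 in ITD, and 1.87, 1.78 and 0.924 in WT, overlapped between all groups. These ratios were chosen after the levels were seen and carry no test.

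**Figure D4:**
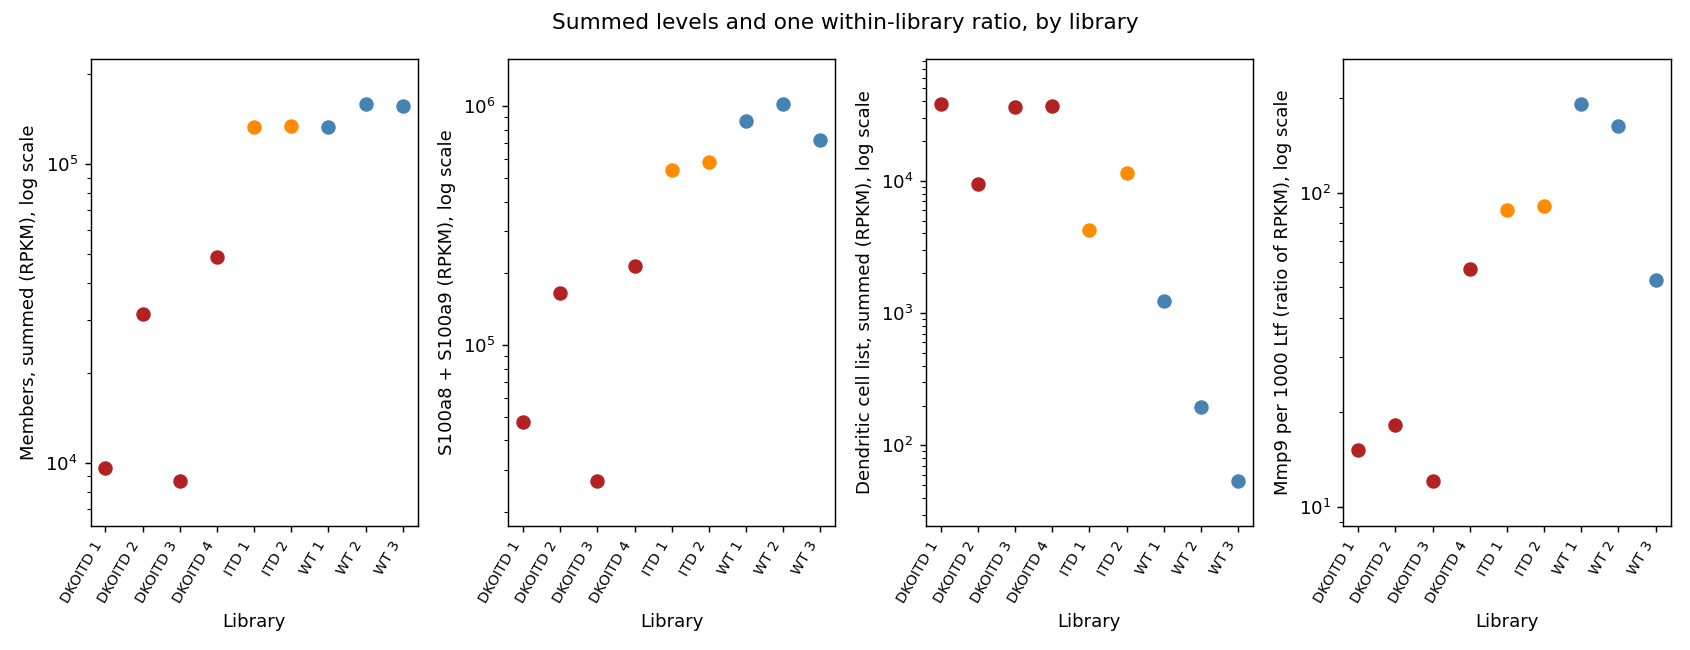
Summed RPKM (log scale) of the 10 members, of S100a8 and S100a9 and of the dendritic cell list, and the ratio of Mmp9 to 1000 of Ltf (log scale), by library. The member and S100 sums are lowest in DKOITD 1 and DKOITD 3, and the dendritic sums are highest in DKOITD 1, 3 and 4. The Mmp9 ratio is lowest in DKOITD 1 to 3.

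Genes whose pattern was most like the members' mean were ranked by the root mean square of the difference in centred log2(RPKM + 1) over the 9 libraries. Only tested genes were ranked, and symbols of predicted models (Gm and a number, Rik or LOC) were left out. The closest was Pilra, an inhibitory receptor of myeloid cells, at 0.22, followed by Mxd1, a partner of MAX that represses transcription, at 0.24. Tnnt1 and S100a8 followed at 0.30 each, with Trem3 at 0.30, the formyl peptide receptor Fpr1 at 0.31, Itgb2l at 0.32, Fmo5 at 0.34 and Adpgk at 0.37. The median over all tested genes that are no member, predicted models included, was 1.78. Of the members, Ngp lay closest to the mean at 0.26 and Mmp9 farthest at 1.12, with Cd177 at 0.74 and Hp at 0.61. The gene nearest to Mmp9 was AA467197, at 0.53, and Ltf was the nearest of the ranked genes to Ngp, at 0.29. The nearest gene was Ccno for Camp (0.27), Tnnt1 for Lcn2 (0.26), Retnlg for Mmp8 (0.35) and Ccdc125 for Cd177 (0.21). It was Msra for Hp (0.21), Cep19 for Pglyrp1 (0.20) and Cd24a for Padi4 (0.37).

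Genes of the other granule classes did not all move with the members in DKOITD against WT. In the primary granule list, 0 of 11 tested genes rose and 4 fell, with a median log2 difference of -0.04. The genes that fell, given with their log2 differences, were Prss57 (-2.70 ± 0.69), the tetraspanin Cd63 (-2.38 ± 0.30), the ficolin gene Fcnb (-2.17 ± 0.51) and the protease inhibitor gene Serpinb1a (-2.01 ± 0.59; SE; limma, adjusted p of 0.0265, 0.00144, 0.0204 and 0.0431). The azurophil genes Mpo, Elane, Prtn3 and Ctsg did not pass. Mpo, myeloperoxidase, measured 455, 538, 1131 and 26.2 RPKM in DKOITD, against 84.7, 0 and 872 RPKM in WT. Elane, neutrophil elastase, measured 945, 921, 453 and 196 RPKM in DKOITD, against 442, 94.7 and 3203 RPKM in WT. The ranges of both genes overlapped, and both were lowest in WT 2.

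Lists of other secondary and tertiary granule genes and of late neutrophil genes were read in DKOITD against WT. The first also holds genes of the same maturation stage, so not every gene in it encodes a granule protein. Fcnb and Lyz2 are in the first of these as well as in the primary list, and Mmp25 is in both. Of 27 tested genes of that first list, 0 rose and 18 fell, with a median of -1.88. They include AA467197 (-4.72 ± 0.86), Olfm4 (-3.59 ± 0.91), which encodes olfactomedin 4 of secondary granules, and the formyl peptide receptor Fpr2 (-3.39 ± 0.59; SE; limma, adjusted p of 0.00680, 0.0262 and 0.00560). Cybb, the oxidase subunit carried on secondary granule membranes, fell less (-1.20 ± 0.29, SE; limma, adjusted p = 0.0218). Chi3l3, the chitinase-like protein of mouse myeloid cells, did not pass at -0.86 ± 0.64 (SE; limma, adjusted p = 0.383). Of 19 late neutrophil genes, 0 rose and 10 fell, with a median of -2.10, among them S100a9 (-3.90 ± 0.62), S100a8 (-3.24 ± 0.64) and Trem3 (-2.98 ± 0.54; SE; limma, adjusted p of 0.00410, 0.00933 and 0.00681). Against ITD, 1 gene of the primary list and 0 of both other lists passed the limma test, and that gene was Cd63, at -2.31 ± 0.35 (SE; adjusted p = 0.0364). At an unadjusted p under 0.05, 5 of 11 primary, 21 of 27 other secondary and tertiary and 12 of 19 late neutrophil genes were lower in DKOITD than in ITD.

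The granulocyte regulators were mixed, with 1 of 12 rising and 5 falling in DKOITD against WT and a median of -1.46. Cebpe stood at 25.4, 38.4, 11.6 and 32.8 RPKM in the DKOITD libraries and at 104 and 62.1 RPKM in ITD. Its WT values were 87.2, 137 and 242 RPKM, and on this deposited scale DKOITD did not overlap either group. Every DKOITD library was below all WT libraries for 10.9% of all genes, and below both ITD libraries for 14.0%. Cebpe fell by 2.48 on the log2 scale against WT (SE 0.45; limma, adjusted p = 0.00680) and did not pass against ITD, at -1.66 ± 0.51 (SE; limma, adjusted p = 0.133). Klf5 (-3.00 ± 0.59), Ets1 (-2.97 ± 0.67), Cebpd (-2.18 ± 0.47) and Cebpb (-2.00 ± 0.52) also fell, with limma adjusted p of 0.00888, 0.0165, 0.0128 and 0.0287 (SE). Against ITD their log2 differences were -2.47 for Klf5, -3.10 for Ets1, -0.65 for Cebpd and 0.06 for Cebpb. In ITD against WT they were -0.53 for Klf5, 0.13 for Ets1, -1.53 for Cebpd and -2.06 for Cebpb, none of them called. Irf8, a factor that favours monocytes and dendritic cells over granulocytes, rose by 1.42 ± 0.41 (SE; limma, adjusted p = 0.0419). Cebpa, Gfi1, Runx1 and Sfpi1, which encodes PU.1, did not pass, with log2 differences of 1.02, -1.64, 0.78 and -0.38. Against ITD, limma called 0 of the 12 regulators, with 2 higher and 4 lower at an unadjusted p under 0.05.

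Partners of the members in their own reactions were also read. Mmp25, Adam8 and Slc11a1 were already counted in the list of other secondary and tertiary granule genes, and Mpo and Elane in the primary list. Among other metalloproteinases and inhibitors, 0 of 6 tested genes rose and 3 fell in DKOITD against WT. They were Timp2, an inhibitor of such enzymes (-2.74 ± 0.66), Mmp25 (-2.62 ± 0.51) and Adam8 (-2.36 ± 0.38; SE; limma, adjusted p of 0.0213, 0.00849 and 0.00430). Timp1, the main inhibitor of MMP9, is listed at 0 in every library. In the iron and siderophore list 2 of 10 rose and 1 fell. On the log2 scale Trf, transferrin, rose by 4.50 ± 0.37 and Cd163, the haptoglobin-haemoglobin receptor, by 2.14 ± 0.51, while Slc11a1, an iron and manganese exporter of phagosomes, fell by 1.75 (SE 0.43; limma, adjusted p of 9.65e-05, 0.0215 and 0.0230). Of the 4 tested genes of the citrullination and extracellular trap list, which excludes Padi4, 0 passed in limma and 0 had an unadjusted p under 0.05, and the paralogue Padi2 measured 2.93 to 5.52 RPKM in DKOITD against 1.09 to 4.28 RPKM in WT.

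Markers of other cells were read beside the granule genes. In the dendritic cell list 13 of 15 tested genes rose in DKOITD against WT and 0 fell, with a median of 5.44. Irf8 is among those that rose and was already counted with the granulocyte regulators. The lectin gene Cd209a (10.01 ± 0.64) and the MHC class II genes H2-Eb1 (8.28 ± 1.39) and H2-Aa (7.56 ± 1.03) rose most on the log2 scale (SE). The list's summed level was 38159, 9466, 36322 and 36606 RPKM in DKOITD, against 4232 and 11404 RPKM in ITD. It was 1228, 194 and 53.9 RPKM in WT. DKOITD 2, with the lowest dendritic sum of its group, was above DKOITD 1 and DKOITD 3 in 9 of 10 members, while DKOITD 4 had both a high dendritic sum and the highest granule levels of its group in most members. Against ITD 2 of these 15 genes rose, and 1 rose in ITD against WT. Their part in the result was not tested.

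Of the monocyte and macrophage list 5 of 12 rose and 0 fell in DKOITD against WT. The largest rises were of the mannose receptor Mrc1 (4.15 ± 0.60), Cd68 (2.99 ± 0.87) and Emr1 (2.95 ± 0.74; log2 differences, SE). At an unadjusted p under 0.05 in limma, 7 of the 12 were higher and 2 were lower. The list's sums were 2180.2 to 3454 RPKM in DKOITD, 3879 to 4004 RPKM in ITD and 2640.0 to 3339 RPKM in WT. The erythroid sum was 1.28 to 9.50 RPKM in DKOITD, 0 and 2848 RPKM in ITD libraries, and 20.2 to 17209 RPKM in WT, and 1 of 4 tested genes, the globin symbol Beta-s, fell. In the B lineage list 1 of 2 tested genes, Cd79b, rose, with sums of 42.7 to 70.8 RPKM in DKOITD and 5.16 to 15.5 RPKM in WT, and Pax5 and Igll1 were at 0 in every library. In the T and NK list 1 of 3, Nkg7, fell, with Cd3e at 0 in every library and sums of 12.4 to 52.4 RPKM in DKOITD and 80.7 to 352 RPKM in WT. The eosinophil and basophil list had 0 of 3 passing in limma and 0 at an unadjusted p under 0.05, with sums of at most 6.67 RPKM in DKOITD and 6.73 RPKM in WT, and Epx and Fcer1a at 0 throughout. The part of these markers in the granule result was not tested.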

How the data were processed

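RNA of 9 libraries of 100 Mac1+ cells each was prepared with Smart-seq2, per the labels' protocols. The values are RPKM per gene symbol deposited by the authors in 1 table. STAR 2.4.2a, SAMtools 1.1, HTSeq 0.6.1p1 and, as the build, mm10 appear without role or order per the submitters' processing notes. Neither the annotation nor how RPKM was scaled is given in those notes or the labels.

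Whole reads were recovered from the low values for 15564 of 15566 genes above 0 (tolerance 0.0001 reads, smallest fitting length). The RPKM denominator per recovered read was 1.13 to 1.44 in DKOITD, 0.853 and 0.918 in ITD and 0.703 to 0.809 in WT, relative to their geometric mean, so the columns differ by a factor per library that rescaling to reads or TPM removes. Groups came from the sample titles. The 10868 genes that reached 1 RPKM in 2 or more libraries were fitted as log2(RPKM + 1) with limma 3.58.1 in R 4.3.3 (eBayes with trend, all 9 libraries in one fit, two-sided, Benjamini-Hochberg threshold 0.05). Differences understate the change of low genes. The fit was tested on simulated data. The members, the 14 gene lists and the tests were chosen with earlier results of these data known. Members are named in full, up to 3 called genes of each list by size, the 10 genes nearest in pattern and the nearest of each member. Some genes that this rule or a list names are not reported here. Other genes were chosen after their values were seen. 7 listed symbols were matched by older names from RefSeq. Alternatives were another pseudocount, no filter, quantile normalization, TPM, reads, library weights, the 2 groups alone, the label number series, a replicate block and each library left out.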

Additional observations from a re-analysis of the deposited data

How the results depend on the processing

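All 180 alternative values of the members (10 genes under 18 settings) were below 0 in DKOITD against WT, from -5.79 to -0.30, and 140 kept their side of the threshold while 40 lost the call. In DKOITD against ITD all 180 were below 0, from -5.33 to -0.73, and 24 passed. Groups that do not overlap keep their sign when a library is left out or the pseudocount changes. Both tallies of signs were therefore partly fixed in advance. The cause of each changed call was not tested. Genes called in DKOITD against WT numbered 1380, and 733 without a filter, 5135 in TPM, 2772 per recovered read, 4 with the series of label numbers as a term and 884 with a replicate block. Leaving out one library gave 537 to 1955. Members called were 10, and 4 without a filter, 0 with that term, and 6 to 10 with one library left out.

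Genes called in DKOITD against ITD numbered 23, and 42 with quantile normalization, 1575 in TPM, 274 per recovered read, 526 with library weights, 46 with these groups alone, 0 with that term and 57 with a replicate block. Leaving out one library gave 0 to 157. Members called were 0, and 3 in TPM, 2 per recovered read, 8 with library weights, 5 with a replicate block and 0 to 6 with one library left out. Genes called in ITD against WT numbered 1, and 2 with a pseudocount of 0.1, 3 without a filter, 0 with only these groups, 0 with a replicate block and 0 to 47 with one library left out.

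In ITD against WT the sign of 23 of 180 values turned, none of them called. In TPM the log2 differences became 0.27 for Ltf, 0.081 for Camp, 0.33 for Mmp8, 0.32 for Hp and 0.17 for Pglyrp1. Per recovered read they became 0.15 for Ltf, 0.21 for Mmp8, 0.19 for Hp and 0.044 for Pglyrp1, and with library weights 0.12 for Ltf, 0.073 for Mmp8 and 0.18 for Hp. With one library left out they ranged from -0.41 to 0.19 for Ltf, -0.00066 to 0.36 for Ngp, -0.22 to 0.26 for Mmp8, -0.23 to 0.63 for Cd177, -0.38 to 0.20 for Hp and -0.66 to 0.080 for Padi4. Deviations of same-numbered libraries from their group means correlated between -0.044 and 0.071. DKOITD 1 correlated best with WT 3 (0.166), DKOITD 2 with WT 2 (0.071) and DKOITD 3 with WT 3 (0.063). Deviations from means of so few libraries cannot decide whether replicate numbers pair the libraries. The labels state no pairing, so the replicate block rests on a shared number alone. Depth limits Padi4 most, with 107 to 8131 recovered reads per library.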
